A study of Mus musculus with 8 samples.

Results

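The cells described here are non-dividing cortical thymic epithelial cells (cTEC) of the mouse embryo at E17.5, taken from the E17.5 cTEC library of a single-cell RNA sequencing study. A cell was a member when at most 5% of its unique molecular identifiers (UMIs, one per captured mRNA molecule) came from mitochondrially encoded genes, when it had at most 5000 detected genes, no UMI of the proliferation genes Mki67 and Top2a, at least 1 UMI of the cortical genes Psmb11 and Prss16 together, and fewer than 4 UMIs of the haemoglobin genes Hbb-bs and Hba-a1. Of 9066 cells called in the library, 8350 were within the limits on mitochondrial UMIs and genes, and 5366 of these were members (64.3%, 95% exact binomial interval 63.2 to 65.3). The whole series held 28334 called cells in 8 libraries. Because the levels of these 6 genes chose the cells, their own levels are given below as a description only.

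The study followed thymic epithelium from the embryo to the adult. All mice were wild type (WT), of strain C57 B6 (CD45.2), and the cTEC libraries held sorted cells that were DAPI- EpCAM+ CD45- Ly51+ UEA-1-. The same cell rule was applied to the other cTEC libraries, and left 2001 cells at E15.5, 2788 in the newborn (NB), 275 in adult replicate 1 and 353 in adult replicate 2. Adult mTEC replicate 2, medullary epithelial cells sorted as Ly51- UEA-1+, served as the other epithelial type for comparison. These cells were chosen by the limits on mitochondrial UMIs and genes alone, with dividing cells kept. Between members and mTEC, epithelial type thus cannot be told apart from age, preparation and cell cycle. The E17.5 and both replicate 2 libraries form 1 data set and the E15.5, NB and replicate 1 libraries another. Embryonic thymi were dissociated with trypsin and not enriched, while newborn and adult thymi were digested with Liberase and enriched on Percoll, so that age cannot be told apart from preparation between the embryonic libraries and the others. The number of embryos pooled was not given in the sources used here. With 1 library at E17.5, no test between ages was made, no p-value is given, and cells were never used as replicates. Intervals are 95% exact Poisson (counts) or exact binomial (shares) intervals and cover counting error only.

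The thymic cortex is the place where immature thymocytes receive Notch signals, are drawn in by chemokines and are positively selected on self peptides. Cortical epithelial cells make these peptides with, among other enzymes, a proteasome subunit and a serine protease that other cells use little or not at all. They present the peptides on MHC class I and class II. The transcription factor FOXN1 drives this programme. Medullary epithelial cells, which enforce tolerance with AIRE and FEZF2, are a separate lineage.

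The members held 54168251 UMIs in all, with a median of 9835.5 UMIs (503 to 27513) and 2900 genes per cell and a median mitochondrial share of 2.70%. Levels below are CPM, a gene's UMIs over all UMIs of the summed cells, scaled to a total of 1000000. Since the 3′ assay counts each molecule once, CPM was compared between genes without scaling by length. Barcodes shared with the other libraries numbered from 1 (adult cTEC replicate 1) to 52 (adult mTEC replicate 2). Doublets were not called.

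The limits of the rule mostly cut through continuous distributions. For haemoglobin a gap lay just above the limit. Among cells that met all other criteria, 3708 had no haemoglobin UMI, 1364 had 1, 261 had 2, 33 had 3 and 9 had 4. The next 7 cells had from 533 to 4642. The 9 cells just outside the limit had Prss16 at 5124 CPM and Tbata at 7129 CPM, against 3917 and 6571 CPM in the 33 members with 3 haemoglobin UMIs. In the 7 haemoglobin-rich droplets Hbb-bs reached 298355 CPM and Alas2, the erythroid haem synthesis enzyme, 399 CPM. The limit on Mki67 and Top2a lay within a continuous distribution, with 1675 further cells at 1 UMI, 421 at 2 and 635 at 6 or more. Psmb11, Prss16, Ccl25 and Tbata stood at 1576, 3823, 2632 and 6084 CPM in the cells with 1 such UMI, against 1591, 3885, 2619 and 6166 CPM in the members. Only 3 cells were without a cortical UMI, with 638 to 1222 UMIs in all, and 9 members had exactly 1. The mitochondrial limit was also continuous, with 149 members between 4.5 and 5% and 83 otherwise eligible cells between 5 and 5.5%. For the gene limit, 24 cells lay above it, the lowest at 5003 genes, and the highest member had 4974.

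The members carried several cortical genes at high level. Ctsl (cathepsin L, which trims the class II invariant chain) was the second most abundant transcript at 14025 CPM (13993 to 14056), after the nuclear RNA Malat1 at 26697 CPM. Tbata, a thymic gene of the cortex, stood at 6166 CPM and Prss16, the thymus-specific serine protease, at 3885 CPM. Psmb11, the β5t subunit of the thymoproteasome, stood at 1591 CPM (1581 to 1602). The gene lies at chr14:54621433-54629556 (GRCm38, GENCODE annotation). Other genes of the cortical list were lower, with Cd83 at 348 CPM, Ly75 (the antigen uptake receptor DEC-205) at 152 CPM, the Notch ligand gene Dll4 at 52.7 CPM and Enpep, which encodes the sorting marker Ly51, at 15.2 CPM.

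Detection by cell was compared after each cell was thinned at random to 3000 UMIs, which left 5256 members (110 were too shallow) and 5406 adult mTEC. Before thinning, the median depth was 9835.5 UMIs in members and 11386 in the mTEC. Ctsl was found in 100% of members and 51.0% of mTEC, and Tbata in 98.9% and 57.2%, so that the mTEC were no negative reference for these 2 genes. Ccl25, encoding a chemokine that attracts thymocyte progenitors, was found in 94.5% and 23.1%, and Cxcl12, another such chemokine, in 93.2% and 3.63%. The shares for Psmb11 and Prss16, which the rule used, were 95.8% and 99.4% of members against 1.79% and 8.31% of mTEC. The less abundant cortical genes were found in fewer cells at this depth, Ly75 in 34.8% of members and 2.28% of mTEC and Dll4 in 13.7% and 1.54%.

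Among the ligands that support thymocytes, 6 of the 14 listed were over 50 CPM. Ccl25 stood at 2619 CPM, Cxcl12 at 1004 CPM, Wnt4, a Wnt ligand of thymic epithelium, at 433 CPM and Il7, the cytokine needed by early thymocytes, at 316 CPM. Kitl, the ligand of the progenitor receptor KIT, was at 50.1 CPM, close to Dll4 at 52.7 CPM and Jag2, another Notch ligand gene, at 49.8 CPM. Of the transcription factors, Pax1, a factor of the pharyngeal pouch, was at 974 CPM and was found in 93.5% of thinned members, against 14.6% of mTEC. Foxn1 was at 116.5 CPM, Pax9 at 124 CPM and Trp63, the epithelial p53 relative, at 148 CPM. Pax1 was thus the leading factor of the list apart from Tbata, and Foxn1, Pax9 and Trp63 lay close to each other. The keratins were those of simple epithelium, with Krt18 at 7727 CPM and Krt8 at 4110 CPM. Krt17 was at 1891 CPM, and the basal keratins Krt5 and Krt14 at 84.6 and 27.3 CPM.

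The antigen presentation genes were unevenly expressed. Class II was abundant: Cd74, the invariant chain, stood at 7102 CPM, H2-Ab1 at 3693 CPM, H2-Aa at 2452 CPM and H2-Eb1 at 1428 CPM. Class I was lower, with B2m, the shared light chain, at 1016 CPM, H2-K1 at 379 CPM and H2-D1 at 306 CPM. Among the catalytic subunits of the proteasome, Psmb11 at 1591 CPM was the most abundant of the subunits that occupy the β5 position. Psmb5, its constitutive counterpart, was at 357 CPM and Psmb8, its immunoproteasome counterpart, at 7.59 CPM (6.87 to 8.36). Psmb8 was found in 2.23% of thinned members and 59.3% of mTEC. The immunoproteasome subunits of the other positions were not low, with Psmb10 at 1423 CPM and Psmb9 at 379 CPM.

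Markers of other cell types were scarce, and medullary genes gave UMIs in part of the members. The 12 listed medullary genes summed to 327 CPM, 2 of them were over 50 CPM, Ccl21a at 167 CPM and Krt5 at 84.6 CPM, and 37.2% of thinned members had a UMI of the list. Ccl21a was found in 11.9% of thinned members and 85.1% of mTEC, and Krt5 in 16.6% and 40.0%. UMIs from free RNA were not separated from these. Before thinning, 1364 members had 1 haemoglobin UMI and 479 had 1 to 5 UMIs of Pth, genes of other cell types. Aire was at 0.351 CPM and Fezf2 at 0.111 CPM, and the claudin genes Cldn3, Cldn4 and Cldn7, typical of medullary progenitors, were each below 0.4 CPM. The summed thymocyte list was at 14.9 CPM, the myeloid list at 1.35, the erythroid list at 8.44, the endothelial list at 8.44 and the mesenchymal list at 9.86 CPM. Cells with 5 or more UMIs numbered 12 for the thymocyte list, 6 for the endothelial, 2 for the myeloid and 1 for the mesenchymal list. Cortical genes that the rule did not use were thus abundant, and the defining markers of cells other than epithelium were at or near 0. One cell stood apart. It held 2059 of the 2564 UMIs of Pth, the parathyroid hormone gene (80.3%), the next highest member held 3, and Pth over all other members was at 9.32 CPM.

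The word resting was checked against other cell cycle genes. After thinning, 80.9% of members (79.8 to 81.9) had at least 3 UMIs over the S phase and G2M lists, but these lists hold genes that non-dividing cells also use. In cells excluded for 1 UMI of Mki67 or Top2a the share was 82.4%. Over 10 core S phase and 10 core G2M genes, 153 of 5256 members (2.91%, 2.47 to 3.40) had at least 3 UMIs of either set. This core share was 7.16% (5.97 to 8.51) in the cells with 1 Mki67 or Top2a UMI and 93.5% (91.3 to 95.2) in the cells with 5 or more. Most members were thus without a cycling signature at this depth, and a few percent of them carried one in spite of the rule.

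Ribosomal protein genes took 26.3% of the members' UMIs, and 66 of the 100 most abundant genes had Rpl or Rps symbols. Fau, which encodes a ribosomal protein fused to a ubiquitin-like one, was not counted among these. Under the same rule the share was 24.7% at E15.5, 15.1% in the newborn, 12.6% in adult replicate 1 and 18.7% in adult replicate 2. These values cross data sets, and the adult libraries of the 2 data sets differed from each other by more than the members did from E15.5. Set over the adult library of its own data set, the share was larger at E15.5 than in the members, so no order between these ages is read from it. Between single members the share ran from 18.7% to 34.9% (5th to 95th percentile), a spread wider than the gap to either adult library. Many ribosomal protein genes have near-identical processed copies, so the split of reads between single members of the family is uncertain.

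Against both adult cTEC libraries, 19 of 2997 genes tested were at least 4-fold higher in the members and 67 at least 4-fold lower, on the scale of CPM + 10 and with at least 50 CPM on the higher side (0.634% and 2.24% of the genes tested). CPM here was taken over the 27514 genes of both gene lists. The median log2 difference over all genes tested was 0.02 against adult replicate 1 and -0.06 against replicate 2. The adult libraries were less pure under this rule. Their median number of Psmb11 and Prss16 UMIs was 4 in replicate 1 and 26 in replicate 2 against 48 in the members. The summed medullary list was at 5960 and 801 CPM against 327 CPM, the mesenchymal list at 324 and 227 against 9.86 CPM, the myeloid list at 180 and 17.1 against 1.35 CPM and the thymocyte list at 134 and 79.6 against 14.9 CPM. Their part in the differences was in part measured by asking for at least 5 UMIs of Psmb11 and Prss16 in every library, which left 134, 278 and 5307 cells. The adult medullary lists then stood at 2073 and 256 CPM, and 20 genes were higher and 59 lower, of which 18 and 56 were also called without that limit. Against adult replicate 2 alone, 29 genes were higher and 79 lower, and against adult replicate 1 alone, 56 and 276.

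The genes higher in the members had different known roles. Stmn2, a microtubule regulator best known from neurons, was at 202 CPM (199 to 206) in the members, 2 UMIs (0.181 to 5.41 CPM) in adult replicate 1 and 4 UMIs (0.397 to 3.73 CPM) in replicate 2, while E15.5 stood at 573 and the newborn at 56.3 CPM. Crabp2, which carries retinoic acid, was at 176 CPM in the members, 359 CPM at E15.5, 162 CPM in the newborn and 5.99 and 6.19 CPM in the adults. Cdkn1c, an imprinted inhibitor of the cell cycle, was at 208.5 CPM, with 94.6 CPM at E15.5, 38.5 CPM in the newborn and 10.5 and 5.10 CPM in the adults. The first pair was highest at E15.5, whereas Cdkn1c was highest in the members. Meg3, a maternally expressed imprinted RNA, was at 192 CPM against 155, 45.4, 8.99 and 15.7 CPM in E15.5, newborn and adult replicates 1 and 2. Opcml, an adhesion molecule, was at 371 CPM against 418, 249, 33.0 and 21.9 CPM in that order. Nt5dc2 was at 158 CPM in the members, and its 0 UMIs in adult replicate 1 allow up to 2.76 CPM there by the Poisson interval, against 9.10 CPM in replicate 2. Gm266 and Ramp3, a co-receptor of peptide hormones, completed the 10 named genes with Ddit4 and Ppp1r3c, at 135 and 194 CPM in the members and at most 4.49 and 13.1 CPM in an adult library.

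Of the 10 named genes, Ddit4, Ppp1r3c, Cdkn1c and Nt5dc2 were also at least 2-fold above both E15.5 and the newborn, though Nt5dc2 was below 2-fold against E15.5 once each library was set over the adult library of its data set. Ddit4, a stress-induced inhibitor of mTOR, was at 435 CPM in the members, 172 CPM at E15.5, 43.4 CPM in the newborn and 22.5 and 16.8 CPM in the adults. Ppp1r3c, which directs a phosphatase to glycogen, was at 103 CPM (101 to 106) against 12.2 CPM at E15.5, 1.38 CPM in the newborn and 2 UMIs in each adult library. Ddit4 and Ppp1r3c are both known as genes induced by low oxygen.

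Of the 10 named genes lower in the members, 5 were immediate early genes (Atf3, Fos, Egr1, Fosb and Jun), which are switched on within minutes of a stimulus. Fos was at 25.6 CPM in the members and 21.1 CPM at E15.5, against 2312 CPM in the newborn and 3733 and 1862 CPM in the adults. Jun was at 103 and 75.2 CPM in the embryonic libraries against 2391, 3987 and 1651 CPM, and Atf3 at 0.296 and 0.0724 CPM against 455, 1754 and 605 CPM. Egr1 was at 14.0 and 19.8 CPM against 770, 1117 and 642 CPM. The 2 embryonic libraries were thus low and the 3 others high, a split that follows the dissociation method as well as birth. Of 19 genes listed as immediate early and stress genes, 17 were tested and 14 were at least 4-fold lower than in both adults, against 2.24% of all genes tested. Their median log2 difference was -3.89 and -3.37. In the members this list summed to 1043 CPM, at E15.5 to 594 CPM, and to 11781, 21145 and 11702 CPM in the newborn and adults. The metallothionein genes Mt1 and Mt2, which bind metals, showed the same split, Mt1 at 3.23 CPM in the members, 2.10 CPM at E15.5 and 159, 2899 and 863 CPM in the others. S100a6, the chemokine gene Cxcl1 and Dcn, a mesenchymal matrix gene, were also among the 10 named genes, and Dcn stood at 5.79 CPM against 315 and 223 CPM in the adults.

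**Figure D1:**
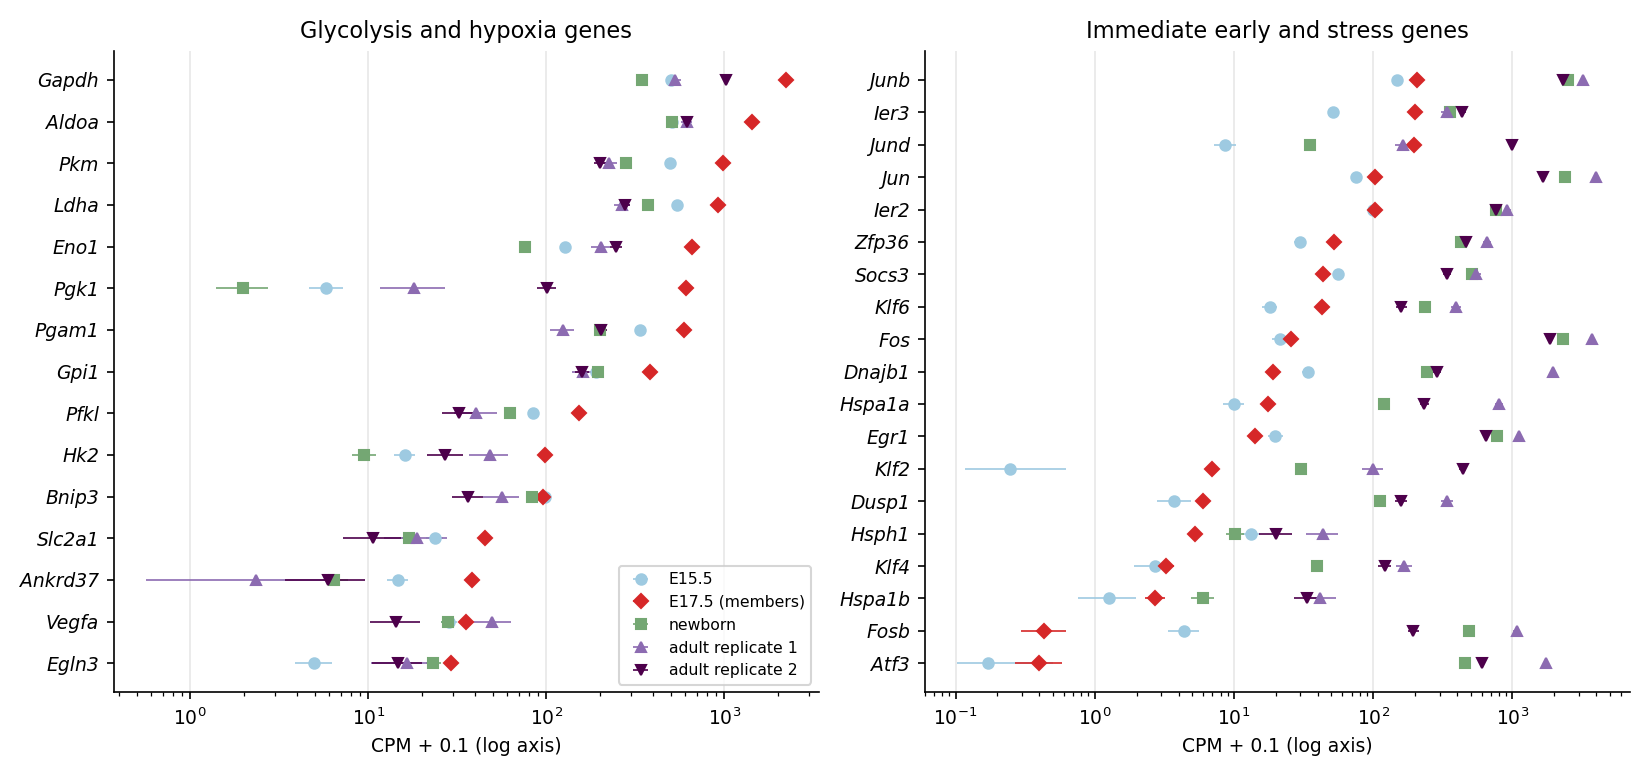
Level of each glycolysis and hypoxia gene (left) and each immediate early and stress gene (right) in non-cycling cortical cells of 5 libraries, as CPM plus 0.1 on a log axis, with 95% Poisson intervals from counting error. The members (red) lie to the right of the other libraries for Gapdh (2234 CPM) and most glycolysis genes, and with E15.5 to the left for Fos (25.6 CPM) and most immediate early genes.

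Genes of immune response were lower than in the adults in part. Of the class I list, 9 genes were tested and Tap2, a subunit of the peptide transporter, and H2-D1 were 4-fold lower, Tap2 at 24.0 CPM against 211 and 152 CPM. Over all genes tested, 2.24% were lower by this limit. The median log2 difference of the class I list was -2.47 and -1.20, and its sum was 2472 CPM against 2222 CPM at E15.5, 6057 CPM in the newborn and 12432 and 7572 CPM in the adults. Psmb8 was at 7.60 CPM against 288 and 146 CPM, and E15.5 stood at 4.56 CPM. Among 11 interferon-stimulated genes tested, Gbp2, a guanylate-binding protein gene, and Irf1, an interferon regulatory factor, were 4-fold lower. Class II had no gene at 4-fold among 9 tested, with a sum of 15409 CPM between 9421 CPM at E15.5 and 22892 CPM in the newborn. The adult sums were higher, at 27099 and 26876 CPM, with a median log2 difference of -0.79 and -0.67. Id2 and Id3, inhibitors of helix-loop-helix factors and targets of BMP signalling, were lower too, Id3 at 30.5 CPM against 322 and 356 CPM. None of the 9 cortical peptide and selection genes tested reached 4-fold in either direction, but the list holds Psmb11 and Prss16, which the cell rule used in every library.

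**Figure D2:**
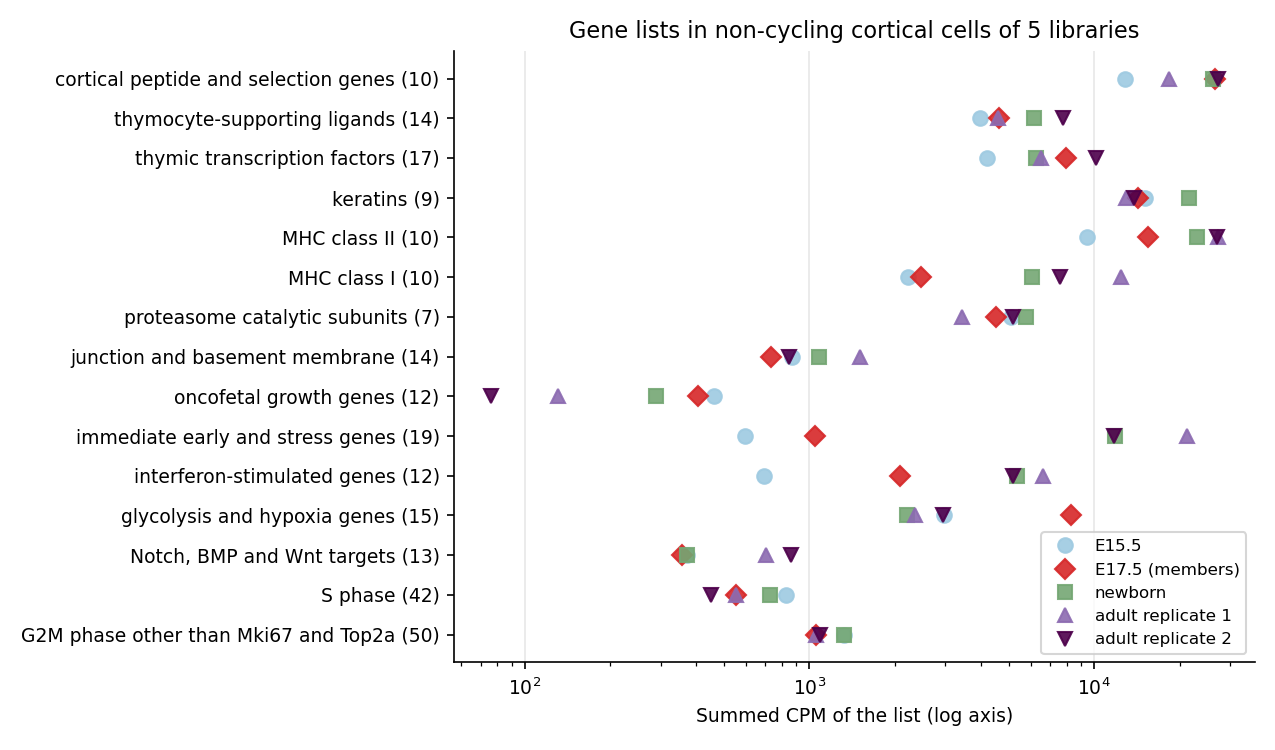
Summed CPM of each gene list (number of genes in brackets) in non-cycling cortical cells of 5 libraries, on a log axis. The members (red) exceed the 4 other libraries in the glycolysis and hypoxia list (8299 CPM), lie with E15.5 far below them in the immediate early list (1043 CPM), and lie among them in the cortical list.

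Glycolysis set the members apart from all 4 other libraries. The 15 listed glycolysis and hypoxia genes summed to 8299 CPM in the members, 2972 CPM at E15.5, 2201 CPM in the newborn, 2355 CPM in adult replicate 1 and 2952 CPM in adult replicate 2. Of 11 tested against the adults, Pkm, a pyruvate kinase, and Pgk1, a phosphoglycerate kinase, were at least 4-fold higher, against 0.634% of all genes tested. The median log2 difference of the 11 was 1.69 and 1.51. Pkm was at 978 CPM in the members against 499, 282, 224 and 201 CPM at E15.5, in the newborn and in the adults. Ldha, the lactate dehydrogenase subunit of anaerobic glycolysis, was at 928 CPM against 546, 371, 267 and 276 CPM. Hk2, an inducible hexokinase, was at 97.8 CPM against 15.9, 9.38, 47.9 and 26.9 CPM. Adult replicate 2, from the same data set as the members, was below E15.5 and the newborn in Pkm and Ldha and above both in Hk2. Pgk1 was different, at 613 CPM in the members, 100.5 CPM in adult replicate 2 and 5.72, 1.88 and 18.0 CPM in the 3 libraries of the other data set. Since Pgk1 and Gapdh have near-identical copies in the genome, and each data set was counted on its own annotation, their levels across data sets are uncertain.

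A second comparison asked which genes lay outside the range of the ages on either side, at least 2-fold above or below both E15.5 and the newborn, among genes within 2-fold of each other in the adult replicates. Of 2754 genes tested, 37 were higher and 15 lower (1.34% and 0.545%). The median log2 difference over all genes was -0.22 against E15.5 and -0.26 against the newborn, and the split of calls moved with the scaling. Of all calls 71.2% were higher by CPM, 93.3% with TMM factors, 94.5% with median-ratio factors and 44.6% when each library was first set over the adult library of its data set. Of the 52 calls, 34 were also made with TMM factors, 35 with median-ratio factors and 30 over the adult library of the data set. With TMM factors 70 genes were higher and 5 lower. Hk2, Aldoa, Gapdh and Eno1 of 10 glycolysis genes tested were higher. Eno1, an enolase, was at 658 CPM in the members against 127 CPM at E15.5 and 76.4 CPM in the newborn, and Gapdh at 2234 CPM against 501 and 344 CPM. The 5 leading genes were Ppp1r3c, Rpl6, Eno1, Rpl35 and Gapdh, of which Rpl6 and Gapdh were no longer called with TMM or median-ratio factors because the adult replicates then differed by over 2-fold. In the lower direction Erh, a small splicing-associated protein gene, was at 133 CPM against 592 and 510 CPM. Rbm3, induced by cold, was at 180 CPM against 413 and 608 CPM, and was not called with either of those factors. Rpa3, Sptbn1 and Mrps28 were the other named genes. Within the Notch, BMP and Wnt target list, Id3 was the gene below the range.

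The promoters of the glycolysis genes were searched for the letter string that hypoxia-inducible factor is known to bind. In the RefSeq promoters of GRCm38.p6, taken from 250 bases before to 50 bases after the start, ACGTG was found on either strand in 12 of the 15 glycolysis and hypoxia genes and in 5886 of 27025 genes (21.8%). The listed promoters were richer in G and C, with a median of 65% against 52.7%, and promoters of like composition were not compared. Ldha had 5 matches, on both strands and partly overlapping, while Gpi1, Pfkl and Eno1 had none. A match describes letters and no binding was measured. Windows around 1 match are printed for Ldha (chr7:46845737-46845781, plus strand), Pkm (chr9:59657132-59657176, plus strand) and Aldoa, an aldolase (chr7:126799356-126799400, minus strand), as list members with a higher level in the members than in each of the 4 other libraries. Aldoa was at 1426 CPM against 512, 506, 616 and 614 CPM at E15.5, in the newborn and in the adults. The windows run 5′ to 3′ in the sense of the gene, with the match or its reverse complement CACGT in capitals.
Ldha: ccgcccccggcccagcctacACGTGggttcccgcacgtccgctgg
Pkm: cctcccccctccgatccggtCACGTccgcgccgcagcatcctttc
Aldoa: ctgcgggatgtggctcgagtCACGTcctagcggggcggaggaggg

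Variation among the members was small for most genes and large for a few. It was measured by the excess coefficient of variation (CV), the spread of thinned counts beyond Poisson counting over the mean. Of 3658 genes with a mean of at least 0.1 UMI, the median excess CV was 0.280 and 65 (1.78%) reached 1. The abundant cortical genes lay above that median and below 1, at 0.426 for Psmb11, 0.511 for Prss16, 0.627 for Ccl25, 0.610 for Ctsl and 0.651 for Tbata, and Cd74 was nearer the median at 0.336. Of the cortical list, Snhg11, a non-coding RNA, was the most uneven at 1.06 and Ly75 the least at 0.353, while Enpep was below the limit on the mean. Ctsl ran from 9 UMIs at the 5th percentile through a median of 35 to 88 at the 95th, and Tbata from 2 through 17 to 41.

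The most uneven gene, Pth at 58.8, owed this to the 1 cell above, without which its excess CV was 0. Next came Ccl21a, a medullary chemokine gene, at 5.73. It was found in 11.9% of thinned members, its highest cell held 93 UMIs, and the 263 cells with most of it held 87.5% of its UMIs. Krt5 (2.01), also a medullary and basal marker, had 53.9% of its UMIs in its top 263 cells. The imprinted gene Meg3 ranked next after Ccl21a at 2.72, and Cdkn1c, also imprinted, ranked 15 at 1.70. The interferon-induced genes Cxcl10, a chemokine gene, and Ifit3 were at 2.25 and 2.07, and the lipoprotein genes Apoe and Apoc1 at 2.13 and 2.02. Ndrg1 (1.75) and Adm (1.45), both hypoxia-induced, Sparc, a matrix protein gene (1.82), and the histone genes Hist1h2bc (1.88) and Hist1h1c (1.56) were also among the 20 named genes, with Fxyd2, 8430408G22Rik, Mrln, Ebf1 and Btg2 between 1.54 and 2.56 and Tph1 next above Adm. None of the 20 was on the cortical list.

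**Figure D3:**
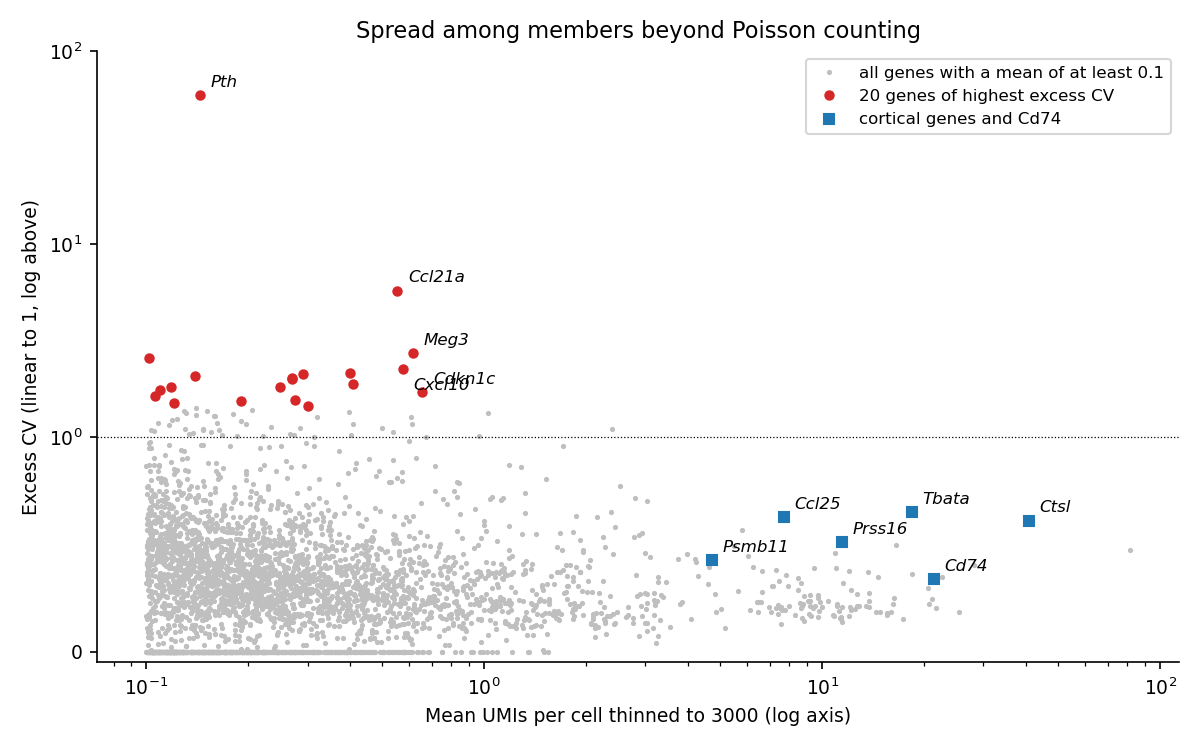
Excess CV of each gene among members thinned to 3000 UMIs (linear to 1, log above) against its mean count on a log axis. Most genes lie below the dotted line at 1, 5 abundant cortical genes and Cd74 (blue squares) lie between 0.336 and 0.651, and Ccl21a (5.73) and Pth (58.8, from 1 cell) stand above the rest.

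Lists of genes varied more or less than single genes did. The excess CV of the summed list was 3.29 for the medullary list, 1.04 for oncofetal growth genes, 0.740 for interferon-stimulated genes, 0.471 for the cortical list, 0.396 for glycolysis, 0.349 for class II and 0.186 for ribosomal protein genes. To see which lists moved together, each UMI was put at random in 1 of 2 sets, cells were ordered into 5 groups of up to 1052 cells by a list in the first set, and all lists were read in the second set. These orderings describe cells of 1 library and carry no test.

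The ordering by ribosomal protein genes set them against the cortical programme. From the lowest to the highest of the 5 groups by ribosomal protein genes, the cortical list went from 39833 to 12878 CPM, class II from 20739 to 9805 CPM and oncofetal growth genes from 288 to 632 CPM. Ctsl went from 23260 to 5609 CPM, Tbata from 8507 to 2954 CPM and Ccl25 from 4029 to 1223 CPM. Cdkn1c moved the other way, from 109 to 378 CPM, and made up most of the rise of the oncofetal list. H19, an imprinted fetal RNA, went from 6.59 to 35.3 CPM. Foxn1 (126 and 106 CPM), Dll4 (57.5 and 50.7 CPM) and Pax1 (967 and 936 CPM) differed little between the same groups. Since a large share of ribosomal UMIs lowers every other share, the values were also taken over non-ribosomal UMIs, a reading added after the data were seen. The cortical list then went from 49773 to 19366 CPM, class II from 25914 to 14746 and oncofetal genes from 360 to 950. Between the sets of UMIs, the Spearman correlation over the 5256 cells of ribosomal protein genes with class II was -0.75, where the points share 1 library, its depth and the common denominator. Ordered by class II instead, the cortical list went from 12322 to 39627 CPM and ribosomal protein genes from 320033 to 216891 CPM, while glycolysis was at 8360 and 8717 CPM.

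**Figure D4:**
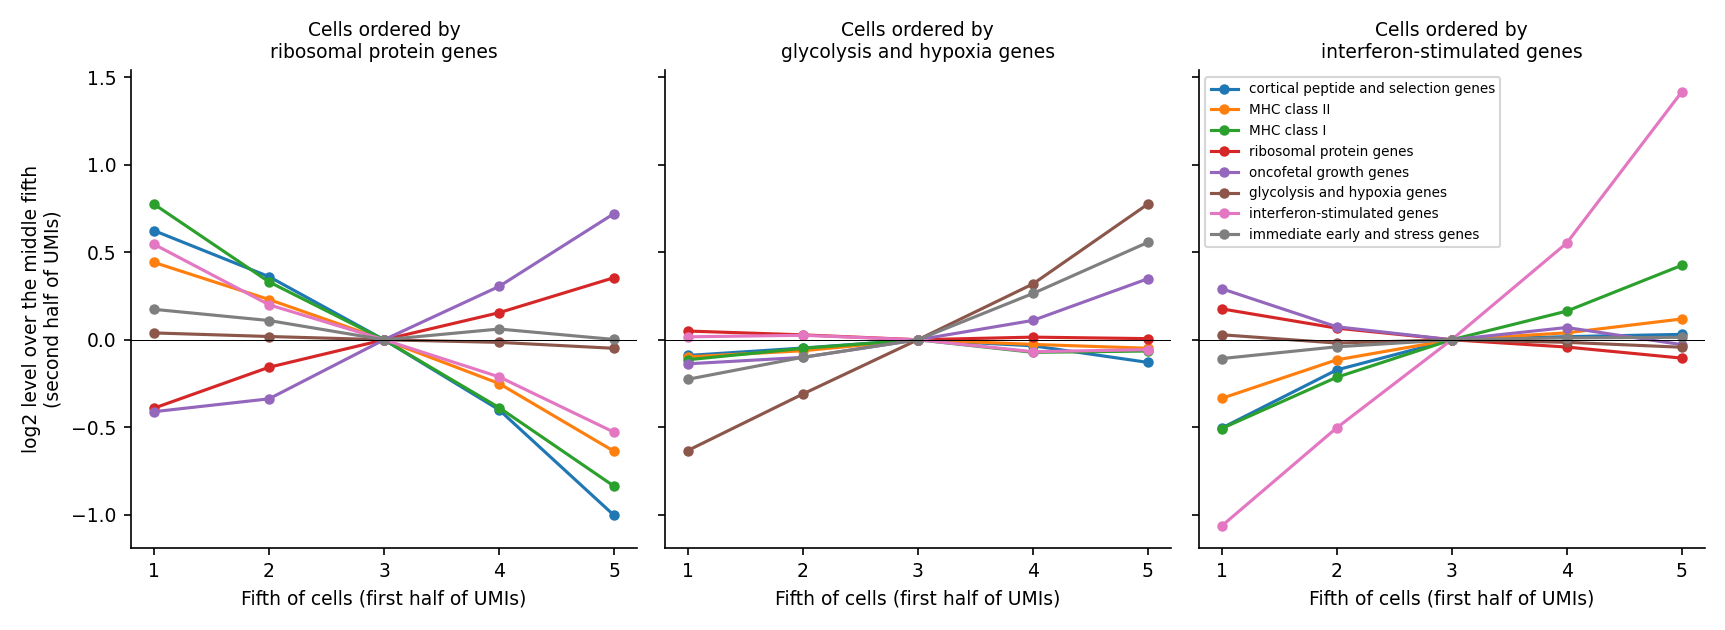
Level of 8 gene lists over the middle one of 5 groups of cells (log2, second set of UMIs) when members were ordered by ribosomal protein genes, by glycolysis and hypoxia genes, or by interferon-stimulated genes in the first set of UMIs. Cortical and MHC lists fall along the ribosomal axis and stay level along the glycolysis axis, where glycolysis goes from 4944 to 13137 CPM.

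Glycolysis varied apart from this ordering. From its lowest to its highest group of cells the list went from 4944 to 13137 CPM, with Ldha from 469 to 1602 CPM and Pgk1 from 313 to 1059 CPM, while the cortical list was at 25912 and 25209 CPM and ribosomal protein genes at 269106 and 261118 CPM. Ndrg1 and Ppp1r3c, hypoxia-induced genes outside the list, went with it, from 8.69 to 95.7 CPM and from 46.5 to 184 CPM. The immediate early list went from 812 to 1397 CPM and Fos from 15.8 to 43.8 CPM. Mitochondrially encoded genes went from 30241 to 23639 CPM. The members at the low end still had a higher glycolysis list than any of the other 4 libraries as a whole.

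Interferon-stimulated genes made another ordering, which overlapped with the first. The list went from 796 to 4447 CPM, Isg15, a ubiquitin-like protein gene, from 159 to 1245 CPM and Bst2, an antiviral membrane protein gene, from 60.3 to 355 CPM. Outside the list, Cxcl10 went from 68.3 to 408 CPM, Ccl21a from 39.6 to 391 CPM the medullary list from 146 to 616 CPM and the class I list from 1737 to 3317 CPM. The cortical list went from 20182 to 29271 CPM and class II from 12651 to 17333 CPM, while glycolysis was at 8510 and 8098 CPM. In CPM, the medullary and class I lists moved by as much or more along the ribosomal ordering, from 572 to 131 CPM and from 3965 to 1296 CPM. The interferon list went from 2910 to 1381 CPM there. Over non-ribosomal UMIs, the medullary list went from 715 to 197 and class I from 4955 to 1949 along it. The interferon ordering was not read on that scale. The core of the interferon-stimulated response element, 2 runs of GAAA with any 2 bases between them, was found on either strand in 8 of the 10 interferon-stimulated genes with a promoter in the RefSeq table and in 1079 of 27025 genes (3.99%). Irf1 and Irf7 had no match. Isg15 is shown as the most abundant of these genes with a match, with Ifit3 as the most uneven and Ifit1 and Igtp as further members. The windows are Isg15 (chr4:156200861-156200910, minus strand), Ifit3 (chr19:34583387-34583436, plus strand), Ifit1 (chr19:34640765-34640814, plus strand) and Igtp (chr11:58199502-58199551, plus strand), 5′ to 3′ in the sense of the gene with 1 match, or its reverse complement, in capitals.
Isg15: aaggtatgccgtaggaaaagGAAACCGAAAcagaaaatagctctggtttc
Ifit3: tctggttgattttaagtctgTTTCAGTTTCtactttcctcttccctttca
Ifit1: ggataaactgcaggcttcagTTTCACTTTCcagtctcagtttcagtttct
Igtp: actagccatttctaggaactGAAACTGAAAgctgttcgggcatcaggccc

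The members were also clustered. Clusters were drawn on the first set of UMIs and levels were read in the second, and the 11 clusters held 995, 897, 852, 719, 601, 536, 440, 152, 85, 46 and 43 cells. They are given by number and leading genes, as a description. Clusters 1, 5 and 6 were weakly set off, with no gene above 2.05-fold over the other members on the CPM + 10 scale. Among genes of at least 50 CPM in the other members, 4, 7 and 10 were at least 2-fold lower. Pth was counted in each, and passed that limit only through the cell that held most of its UMIs. Ccl21a was at 37.3 against 185 CPM in cluster 5 and at 24.0 against 184 CPM in cluster 6, where Cxcl10 was at 46.9 against 209 CPM. Cluster 1 was led by Casz1, a zinc finger factor (146 CPM against 89.2 CPM), cluster 5 by Ppp1r27 (318 against 150 CPM) and cluster 6 by Mrln (76.1 against 34.1 CPM). Cluster 2 was led by Ppp1r3c (215 against 85.4 CPM) and Adm (208 against 82.7 CPM) and had the glycolysis list at 10912 CPM. Slc16a3, the lactate exporter gene, at 46.8 against 17.8 CPM was also among its first 5 genes.

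Cluster 3 had high Ccl21a and interferon-induced genes together with the highest cortical list. Its leading genes were Ccl21a (541 against 80.5 CPM), Ubd, a ubiquitin-like modifier (76.5 against 15.9 CPM), the class I-like gene H2-M2 (75.5 against 20.9 CPM) and Cxcl10 (407 against 141 CPM). The cortical list was at 38011 CPM, above every other cluster, class I at 4036 CPM, the medullary list at 845 CPM, mostly from Ccl21a and Krt5 (174 CPM), and the ribosomal protein share at 21.2%. Cluster 4 was its counterpart, with a ribosomal protein share of 32.4%, the cortical list at 12695 CPM and Mrln (91.2 against 31.5 CPM), Aqp5, a water channel (94.8 against 42.4 CPM), and Hmga2, a fetal chromatin protein gene (51.8 against 23.3 CPM), among its leading genes.

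Cluster 7, with 440 cells, was farthest from the cortical programme. Its Tbata was at 1047 CPM against 6630 CPM in the other members, Ccl25 at 537 against 2806 CPM, and the cortical list at 10761 CPM against 26476 CPM over all members, while Pax1 was at 752 CPM and Foxn1 at 65.8 CPM. It held the cell with the Pth UMIs, and its leading genes without that cell were Fabp4, a fatty acid carrier (84.1 against 7.90 CPM), H19 (83.6 against 9.07 CPM), Aqp3 (58.9 against 4.67 CPM) and Apoe (335 against 70.7 CPM). Sparc was at 280 against 61.9 CPM and Cdkn1c at 637 against 173 CPM. Its glycolysis list was at 11727 CPM and its oncofetal list at 971 CPM, both above every other cluster, and its endothelial list was at 35.8 CPM against 8.34 CPM over all members, whose part in these levels was not tested. The hypoxia-induced gene Adm was low in this cluster, at 20.3 CPM against 111 CPM in the other members.

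**Figure D5:**
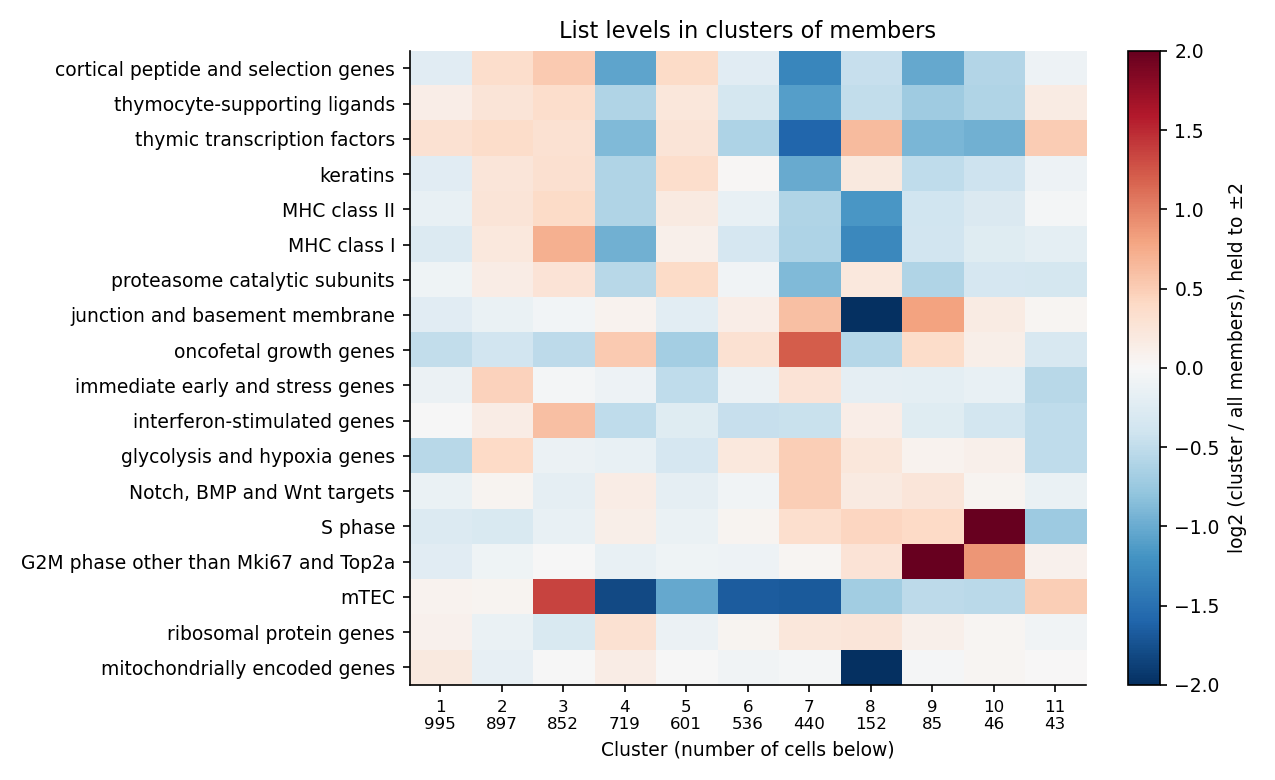
Level of each gene list in each of 11 clusters of members over its level in all members (log2, second set of UMIs, colours held at 2 in either direction), with the number of cells below each cluster. Cluster 3 (852 cells) is high in cortical, class I, interferon and medullary lists, cluster 7 (440 cells) is low in cortical and high in oncofetal genes, clusters 9 and 10 are high in cell cycle lists, and cluster 8 is low in mitochondrial genes.

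The small clusters were of other kinds. Cluster 9 was led by mitotic genes, Ccnb2, a cyclin (244 against 6.65 CPM), and Cenpa, a centromeric histone (184 against 3.70 CPM), and had a thymocyte list of 160 CPM. Cluster 10 was led by replication genes, Mcm5 (136 against 7.09 CPM) and Hells (159 against 10.1 CPM). Of their thinned cells, 45 of 77 (58.4%) and 27 of 45 (60%) passed the core cell cycle limit. Cluster 8 had a median of 3390.5 UMIs and a mitochondrial share of 0.324%, with Xist at 81.8 against 825 CPM and Kcnq1ot1, another nuclear RNA, at 0 UMIs in the second set (up to 13.7 CPM by the Poisson interval) against 70.9 CPM. Cluster 11 had a median of 1892 UMIs against 9835.5 in all members, and was not described further.

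The clusters were only partly stable. With the 2 sets of UMIs exchanged, 92.0%, 94.1% and 80% of the cells of clusters 7, 8 and 9 fell into 1 cluster, against 48.5% of cluster 2 and 58.8% of cluster 3. Cluster 7 was not recovered on its own, since the 964 cells of its match were 42.0% from cluster 7 and 48.9% from cluster 4. At a resolution of 0.4 the number of clusters was 5, most cells of clusters 4, 6, 7 and 10 fell into 1 cluster of 1595 cells, and 91.2%, 95.4% and 98.3% of clusters 2, 3 and 5 fell into 1 cluster of 2360 cells.

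The pool held embryos of both sexes. Xist, the RNA of the inactive X chromosome, was found without Y-linked UMIs (Ddx3y, Eif2s3y, Kdm5d and Uty) in 68.2% of members, Y-linked UMIs alone in 8.55%, both in 15.9% and neither in 7.29%. Only 33 cells had both at least 5 Xist and at least 2 Y-linked UMIs. Among 3031 cells with 5 or more Xist UMIs and none Y-linked, and 364 with at least 2 Y-linked and at most 1 Xist UMI, 3 of 2730 genes compared differed 2-fold, Xist, Ddx3y and Eif2s3y, which had defined the cells. The cortical list was at 27004 and 26499 CPM, the glycolysis list at 8822 and 7090 CPM and the immediate early list at 1146 and 822 CPM. These cells came from 1 library and an unknown number of embryos, so sex cannot be told apart from embryo.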

How the data were processed

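Single-cell RNA sequencing (Chromium v2, 3′ ends) was deposited by the authors as matrices of raw UMI counts per gene and called cell, with no normalization. The submitters' processing notes name bcl2fastq 2.17, STAR 2.5.1b, Cell Ranger 2.0.1 and mm10, while the matrix headers of the E17.5 data set name software 3.0.1. The gene lists held 31053 and 27998 genes, and comparisons between libraries used CPM over the 27514 in both. List sums used each library's own genes.

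The members and lists were chosen with earlier results of these data known. Groups came from the labels. Counts were summed over the members and given as CPM. With 1 library per age, differences were called by size on CPM + 10, 4-fold against both adult libraries or 2-fold outside E15.5 and NB, with 50 CPM on the higher side. Named genes were up to 4 of the highest per list, the 10 or 5 largest differences in each direction, the 20 most uneven genes and the first 5 of each cluster. Further genes were named for their known role after their values were seen. Cells were thinned to 3000 UMIs for shares and spread. Clusters were drawn on 1 of 2 random sets of UMIs (2000 variable genes, 20 components, Leiden resolution 0.8) and read in the other set. Doublets were not called. Scripts were tested on simulated data. Python 3.11.15, numpy 2.4.6, scipy 1.17.1, pandas 2.3.3, scikit-learn 1.9.0, leidenalg 0.10.2, igraph 0.11.9 and R 4.3.3 with edgeR 4.0.16 (TMM and median-ratio factors only) were used. Alternatives covered the cell limits, scaling, pseudocount, filters, thinning and clustering.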

Additional observations from a re-analysis of the deposited data

How the results depend on the processing

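The number of members was 1006 with fewer than 3 UMIs over the S phase and G2M lists. The ribosomal protein share, 26.34%, was 26.37% with haemoglobin under 2 UMIs, 26.33% with no haemoglobin limit, 26.67% with fewer than 3 cell cycle UMIs, 26.25% without the limits on mitochondrial UMIs and genes, and 26.10% as the median of the cells' own shares. The share of members with cell cycle UMIs was 97.2% with thinning to 5000 UMIs, 98.7% without thinning, 46.2% with at least 5 UMIs, and 2.91% over the core genes, a limit chosen after seeing the data. Leaving out 1 adult library gave 29 to 56 higher genes and 79 to 276 lower genes. Genes outside the range of E15.5 and NB numbered 85 with no filter on low values, 141 with no limit on the adult libraries and 101 with each library over the adult library of its data set, the last chosen after seeing the data. Under that setting Sptbn1 was no longer called, at -0.66 on the log2 scale. Variable genes numbered 128 with thinning to 5000 UMIs and 1918 with no filter on the mean. Clusters numbered 5 at resolution 0.4. Cells with Xist or Y-linked UMIs made up 77.8% after thinning. The limit of 5 cortical UMIs, the denominator without ribosomal UMIs and the reading without the Pth cell were also chosen after seeing the data. No gene named against the adults or outside the range changed direction under the alternatives run. The balance of calls outside the range went from 37 higher and 15 lower to 45 higher and 56 lower with each library over the adult library of its data set. Of the cluster genes, Pth in cluster 7 went from 451 against 9.35 CPM to 8.41 against 9.35 CPM without the Pth cell. For the changes that do not follow from the alternative's own construction, the cause was not tested. No paired analysis was possible because the results come from no test and E17.5 had 1 library.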

Other observations

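The genes of signalling pathways that act on thymic epithelium were mostly low in the members. Of 13 targets of Notch, BMP and Wnt signalling, 2 were over 50 CPM, Hey1 at 132 CPM and Hes1 at 90.4 CPM, both transcriptional repressors downstream of Notch. Hes1 was at 10.1 CPM at E15.5, 9.60 CPM in the newborn, 20.2 CPM in adult replicate 1 and 99.4 CPM in adult replicate 2, so that the 2 libraries of the E17.5 data set were the high ones. Age and data set cannot be told apart in Hes1 among the 3 younger libraries. Myc, a driver of cell growth, was at 18.3 CPM and its relative Mycn at 1.16 CPM.

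Of the 12 oncofetal growth genes, Cdkn1c at 208 CPM and Grb10, an imprinted growth inhibitor, at 58.4 CPM were the only ones over 50 CPM. The mRNA-binding protein genes Igf2bp3 and Igf2bp2 stood at 44.7 and 34.4 CPM and Hmga2 at 27.8 CPM. Igf2, the fetal growth factor gene next to H19, had 1 UMI over all members, while H19 was at 15.4 CPM. The summed list was at 463 CPM at E15.5, 408 CPM in the members, 288 CPM in the newborn and 131 and 76.0 CPM in the adults. Much of the members' sum was Cdkn1c, which was at 94.6 CPM at E15.5 and 38.5 CPM in the newborn. E15.5 and the newborn are also of the other data set, so no order between these 3 ages is read from the sum.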
